A study of Mus musculus with 6 samples.

Results

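Krt7, Krt8, Krt18 and Krt19, the keratins of single-layered epithelia, were examined together with Epcam, an epithelial surface protein, and Elf3, an epithelial ETS-family transcription factor. These 6 genes were taken by symbol from a table of 11164 genes, and all 6 had a row and passed the filter on low values. RNA came from colonies grown from the pancreas of adult C57Bl/6 mice aged 2 to 4 months. Cells with high CD133 and low CD71 on their surface were sorted, exposed overnight to lentivirus, and cultured for 3 weeks under puromycin in methylcellulose and Matrigel, with serum, conditioned medium, activin B, exendin-4, nicotinamide and the Wnt enhancer RSPO1. The control group carried 1 shRNA with no mammalian target, the Glis3 knockdown a pool of 5 shRNA clones against the zinc-finger factor Glis3, and the CD133 knockdown a pool of 5 clones against CD133, the membrane glycoprotein encoded by Prom1. Each group had 2 libraries, titled replicates 1 and 3, and all groups shared the sort, the culture and the viral selection. The labels do not say whether replicates came from separate mice or cultures, so the p-values below measure only the spread between these libraries, which may be technical.

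Keratins build intermediate filaments from obligate pairs of a type II chain (here Krt7 and Krt8) and a type I chain (Krt18 and Krt19). In the adult pancreas, acinar cells carry mainly the Krt8 and Krt18 pair, and duct cells add Krt19 and Krt7. Epcam joins neighbouring epithelial cells and, when cleaved, releases an intracellular piece that can act with beta-catenin. Elf3 binds DNA sites built around the bases GGAA and activates genes of epithelial differentiation.

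The libraries had an estimated depth of 25.7 to 29.2 M reads (megareads, from the steps between low values) and RPKM sums (reads per kilobase of transcript and per megaread of library) of 267688 to 279122. The targeted genes followed the labels: Glis3 stood at 26.05 and 24.22 RPKM in controls and at 13.31 and 11.96 RPKM in its knockdown, and Prom1 stood at 191.25 and 203.42 RPKM in controls and at 88.03 and 96.00 RPKM in the CD133 knockdown. Of the other cell types the sort could hold, acinar cells had 1 of 13 listed markers in the table, endothelial cells 0 of 6, immune cells 1 of 8 and Schwann or neural cells 1 of 5. Duct cells had 11 of 12 and endocrine cells 5 of 11. Summed over the markers in the table, the acinar list lay between 0.49 and 1.06 RPKM and the immune list between 5.12 and 6.39 RPKM. Markers outside the table are not analysed here.

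On the mouse genome (GRCm38, GENCODE M21), 3 of the 4 keratin genes lie in the keratin cluster of chromosome 15. Krt7 spans 101411043 to 101430313 on the plus strand with 9 exons. Krt8 spans 101996698 to 102004482 on the minus strand with 9 exons, and Krt18 spans 102028180 to 102032027 on the plus strand with 7 exons. Krt8 and Krt18, which pair as proteins, are thus neighbours that point away from each other, with 23697 bases between them. Krt19 lies apart from them, on chromosome 11 at 100140810 to 100148665 on the minus strand with 6 exons. Epcam lies on chromosome 17 at 87635979 to 87651129 (plus strand, 10 exons) and Elf3 on chromosome 1 at 135253575 to 135258568 (minus strand, 9 exons). Exons of Krt7, Krt8 and Elf3 overlap genes annotated on the opposite strand, and the use of strand in counting is not given in the sources used here. Krt8 also has a close copy, Krt8-ps, with 98.6% identity over 941 bases, and Krt18 has Gm5200, with 90.45% identity over 1267 bases. Reads of these copies could have been counted with the parent genes.

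Promoter windows of 300 bases, from 250 before to 50 after the RefSeq start (GRCm38.p6), were matched for 5 of the 6 genes: Krt7, Krt8, Krt18, Epcam and Elf3. For all of these but Epcam the RefSeq start differs from the GENCODE gene end given above. The windows of Krt8 and Krt18 are shown because these neighbours form a protein pair of which 1, Krt8, was called below, and that of Elf3 because it was the member called in both knockdowns. Each reads 5′ to 3′ on the gene's own strand, and capitals mark the ETS core GGAA, or TTCC where the core lies on the opposite strand.
Krt8, chr15:102004293-102004592, minus strand: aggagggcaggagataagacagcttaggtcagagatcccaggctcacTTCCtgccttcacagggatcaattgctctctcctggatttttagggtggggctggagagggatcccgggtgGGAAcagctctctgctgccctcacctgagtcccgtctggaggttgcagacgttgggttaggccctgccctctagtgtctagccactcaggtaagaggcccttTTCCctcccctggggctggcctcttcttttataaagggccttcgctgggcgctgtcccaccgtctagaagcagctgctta
Krt18, chr15:102027966-102028265, plus strand: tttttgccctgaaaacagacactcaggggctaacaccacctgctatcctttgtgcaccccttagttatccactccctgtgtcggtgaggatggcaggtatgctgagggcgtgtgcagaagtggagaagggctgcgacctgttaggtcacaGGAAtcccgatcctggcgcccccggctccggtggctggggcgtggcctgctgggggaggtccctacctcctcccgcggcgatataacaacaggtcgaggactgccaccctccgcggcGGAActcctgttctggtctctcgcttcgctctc
Elf3, chr1:135258423-135258722, minus strand: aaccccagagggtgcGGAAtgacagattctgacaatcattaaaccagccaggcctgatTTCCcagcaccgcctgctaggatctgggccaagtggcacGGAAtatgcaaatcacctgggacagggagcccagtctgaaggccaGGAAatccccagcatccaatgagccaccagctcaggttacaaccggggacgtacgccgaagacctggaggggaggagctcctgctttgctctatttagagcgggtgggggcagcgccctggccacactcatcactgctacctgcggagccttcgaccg
The ETS core occurred 4 times in the Elf3 window, 3 times in those of Krt7 and Krt8, 2 times in that of Krt18 and 1 time in that of Epcam. The core is common, being present in 96.0% of 32851 windows of the same length with a mean of 3.52 matches, so these counts are near the background. Of the longer motifs searched on both strands, TATAAA was found in the Krt8 window only, in 2 overlapping matches, 1 on each strand (13.6% of all windows hold one). These matches begin 3 and 1 bases before the RefSeq start. CCAAT was found in the Elf3 window only (37.4% of windows), and GGGCGG occurred 4 times in the Krt7 window and 1 time in the Epcam window (35.7%). Neither TGGGGGGT (1.5%) nor TGANTCA (7.8%) was present in any of the 5 windows.

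All 6 genes were highly expressed in every library. Among the 11164 genes ranked by RPKM, Krt18 held ranks 7 to 14, Krt8 ranks 6 to 28, Krt19 ranks 15 to 50 and Epcam ranks 43 to 75, while Krt7 held ranks 436 to 606 and Elf3 ranks 464 to 673. In controls the order of levels was Krt18, Krt8, Krt19, Epcam, Krt7 and Elf3, with no overlap between neighbours. The upper order was the same in the Glis3 knockdown, but there Elf3 exceeded Krt7 in both libraries. In the CD133 knockdown, the levels of Krt8 and Krt18 overlapped, as did those of Krt7 and Elf3.

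**Figure D1:**
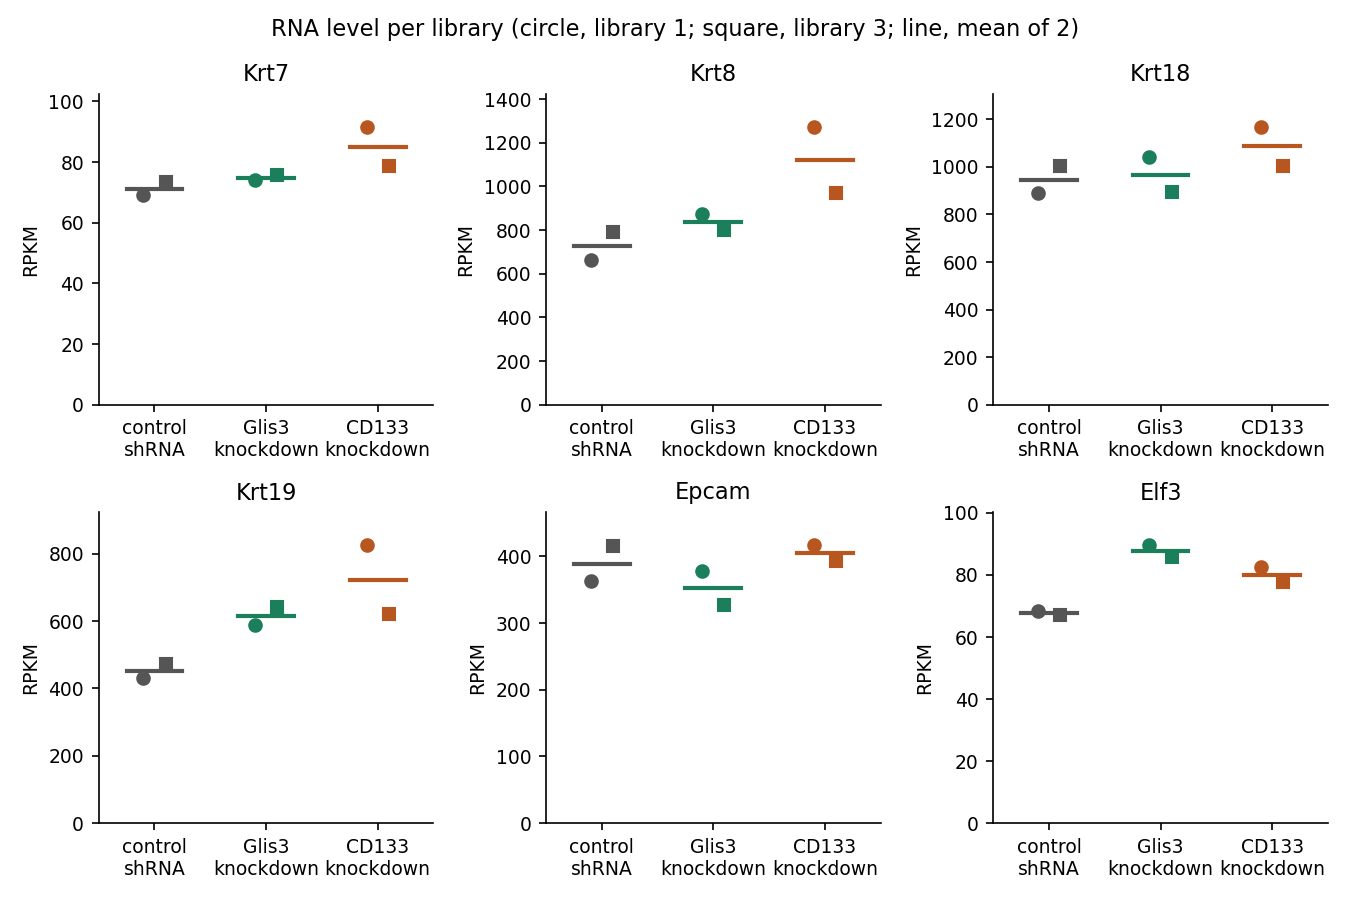
RPKM of each of the 6 genes in the 6 libraries, 1 panel per gene with its own vertical axis starting at 0. Circles are library 1, squares are library 3 and lines are group means. Elf3 is higher in all 4 knockdown libraries than in both controls, and Krt8 and Krt19 reach their highest values in CD133 knockdown library 1.

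Krt8, the main type II chain, stood at 663.18 and 793.13 RPKM in controls, at 873.34 and 802.18 RPKM in the Glis3 knockdown and at 1272.75 and 967.92 RPKM in the CD133 knockdown. All 4 knockdown libraries lay above both controls, those of Glis3 by little, and the CD133 libraries differed most from each other. Krt7, the duct-type type II chain, stood at 69.07 and 73.36 RPKM in controls, 74.02 and 75.77 RPKM in the Glis3 knockdown and 91.64 and 78.66 RPKM in the CD133 knockdown. Its Glis3 libraries lay just above the controls and its CD133 libraries somewhat further. The highest value of Krt8 over the 6 libraries was 1.92 times its lowest, against 1.33 times for Krt7.

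Krt18, the type I partner of Krt8, stood at 890.00 and 1003.98 RPKM in controls, at 1040.94 and 894.14 RPKM in the Glis3 knockdown and at 1168.69 and 1005.27 RPKM in the CD133 knockdown. The Glis3 libraries overlapped the controls, and CD133 library 3 exceeded the higher control by about 1 RPKM. Krt19, the type I chain of ducts, stood at 432.16 and 473.57 RPKM in controls, 589.42 and 642.40 RPKM in the Glis3 knockdown and 824.78 and 619.54 RPKM in the CD133 knockdown. All 4 knockdown values of Krt19 were well above both controls, and those of the 2 knockdowns overlapped.

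Epcam stood at 362.32 and 415.17 RPKM in controls, at 377.33 and 327.33 RPKM in the Glis3 knockdown and at 416.44 and 393.59 RPKM in the CD133 knockdown. Both knockdowns overlapped the controls. Elf3 stood at 68.28 and 67.14 RPKM in controls, at 89.55 and 85.68 RPKM in the Glis3 knockdown and at 82.55 and 77.69 RPKM in the CD133 knockdown. Its replicates lay close together and its 3 groups did not overlap.

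Glis3 knockdown against control asked how these genes respond to a partial knockdown of the transcription factor. Elf3 rose, from 67.7 ± 0.806 to 87.6 ± 2.74 RPKM (SD, n = 2 each), or 0.37 on the log2 scale (interval at 95% confidence 0.23 to 0.50, SE 0.056, limma adjusted p = 0.0130). It was the only member called of the 6, where 12.9% of the 10829 genes tested were called and 8.39% were called higher. Krt19 went from 453 ± 29.3 to 616 ± 37.5 RPKM, a log2 fold change of 0.44 (0.11 to 0.77), and missed the threshold (limma adjusted p = 0.0813). Its SE, 0.138, was larger than that of Elf3.

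The other 4 genes had smaller log2 differences from control in the Glis3 knockdown, none past the threshold. They were 0.21 for Krt8 (-0.15 to 0.56), 0.07 for Krt7 (-0.12 to 0.26), 0.03 for Krt18 (-0.25 to 0.31) and -0.14 for Epcam (-0.38 to 0.09). The sign for Krt18 turned under median centring (-0.03), without control library 1 (-0.06) and without Glis3 library 1 (-0.08). The 6 members had a median log2 fold change of 0.14, against 0.04 over all genes tested. Both libraries lay above both controls for 4 members (Krt7, Krt8, Krt19 and Elf3), where 38.5% of all genes did so. Since the RNA is from whole colonies, a change in the share of a cell type and a change in RNA per cell cannot be told apart.

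Several of these calls changed when a library was left out. A group left with 1 library takes its spread from the other groups, the lone library being assumed to vary like theirs. Without control library 1 or control library 3 the log2 fold change of Elf3 was 0.38 or 0.35, with limma adjusted p = 0.0792 or 0.0748, and 21 or 82 genes in all were called instead of 1400. Without Glis3 library 3 the number was 516, and Elf3 was still called. Over 16 alternatives its adjusted p ranged from 0.0127 to 0.0792. Krt19 passed under quantile normalization (log2 fold change 0.51, limma adjusted p = 0.0474), with the control and Glis3 libraries alone (0.0374), and without CD133 library 1 (0.0369) or CD133 library 3 (0.0390), its adjusted p ranging from 0.0369 to 0.277. Of the 1400 calls, 909 were higher and 491 lower, and this split was 576 to 712 after median centring and 641 to 621 after quantile normalization.

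CD133 knockdown against control asked the same of the surface protein used in the sort. Krt8, Krt19 and Elf3 rose, so 3 of 6 members were called, where 11.8% of the genes tested were called and 8.16% were called higher. The members were chosen with earlier results of these data known, so their shares and medians set against all genes are only a description. Krt8 went from 728 ± 91.9 to 1120 ± 216 RPKM (SD, n = 2 each), or 0.61 as a log2 fold change (0.26 to 0.97, SE 0.149, limma adjusted p = 0.0451). Krt19 went from 453 ± 29.3 to 722 ± 145 RPKM, a log2 fold change of 0.66 (0.33 to 0.99, SE 0.138, limma adjusted p = 0.0312). Elf3 went from 67.7 ± 0.806 to 80.1 ± 3.44 RPKM, a log2 fold change of 0.24 (0.10 to 0.37, SE 0.056, limma adjusted p = 0.0418).

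Krt7 had a log2 difference of 0.25 from control (0.06 to 0.44, limma adjusted p = 0.0886), Krt18 one of 0.20 (-0.09 to 0.48, 0.308) and Epcam one of 0.06 (-0.17 to 0.30, 0.712), none past the threshold. Over 16 alternatives the value of Epcam ranged from -0.04, without control library 1, to 0.24, and none of them called it. The median over the 6 members was 0.25 and over the 4 keratins 0.43, against 0.04 over all genes tested. All members but Epcam had both CD133 libraries above both controls, 5 of 6, where 40.3% of all genes did so.

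These calls stood close to the threshold. Without control library 1, control library 3 or CD133 library 1, Krt8 had log2 fold changes of 0.48, 0.74 and 0.42 (limma adjusted p = 0.194, 0.10 and 0.199) and Krt19 of 0.59, 0.72 and 0.45 (0.152, 0.105 and 0.128). Elf3 lost its call in these settings too (0.134, 0.137 and 0.248) and without CD133 library 3 (0.0935). In limma fits without either control library no gene of the table was called, against 1278 with both, while 2449 and 2680 genes had an unadjusted p under 0.05. Without CD133 library 1 or CD133 library 3 the number called was 30 or 503. Median centring ended the calls of Krt8 (log2 fold change 0.56, adjusted p = 0.0639) and Elf3 (0.0934), and quantile normalization (0.0558) and a fit with no variance trend (0.0538) ended that of Elf3. The split of all calls was 884 higher to 394 lower as measured, 559 to 612 after median centring and 547 to 538 after quantile normalization. Over 16 alternatives the adjusted p ranged from 0.0183 to 0.199 for Krt8, from 0.0198 to 0.152 for Krt19 and from 0.0408 to 0.248 for Elf3.

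**Figure D2:**
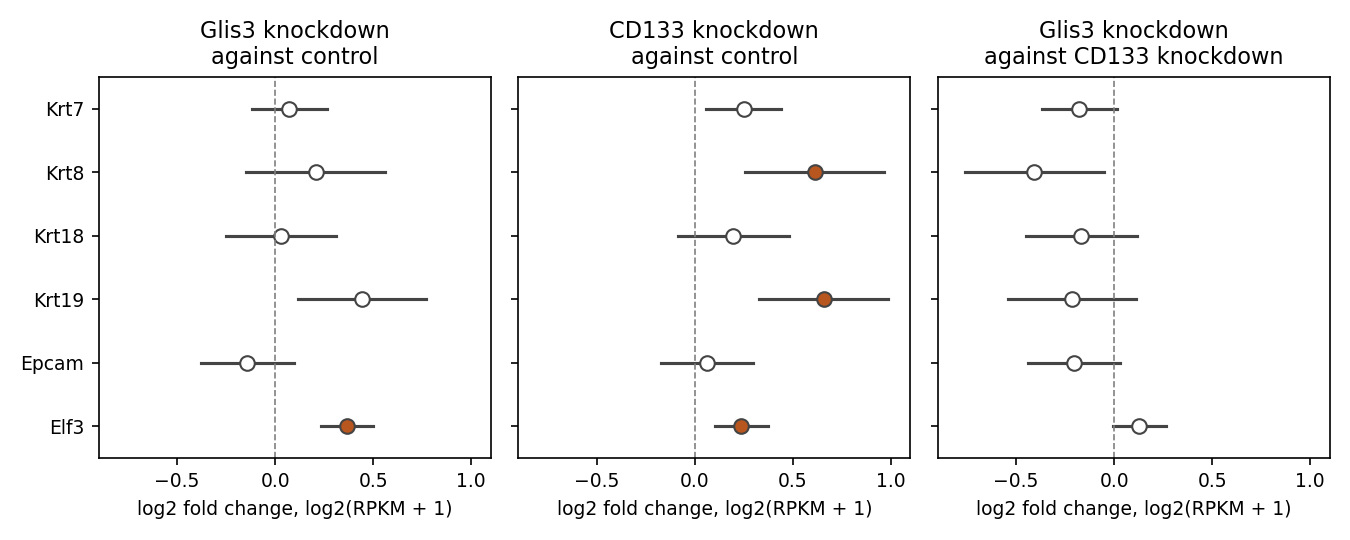
Log2 fold changes of the 6 genes on the log2(RPKM + 1) scale in the 3 comparisons, with 95% confidence intervals from limma. Filled points passed an adjusted p of 0.05: Elf3 in both knockdowns, Krt8 and Krt19 in the CD133 knockdown, and no gene between the knockdowns.

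Between the knockdowns, no member was called by limma at an adjusted p of 0.05, where 4.06% of the genes tested were (1.61% higher and 2.46% lower with Glis3 shRNA), and 1 member, Krt8, had an unadjusted p under 0.05, as 21.9% of all genes had. Krt8 had a log2 difference of -0.41 for Glis3 minus CD133 (-0.76 to -0.05, unadjusted p = 0.0305, limma adjusted p = 0.178). The corresponding interval was -0.54 to 0.11 for Krt19 and -0.01 to 0.26 for Elf3, so the data allow differences of either sign in these genes. The tests therefore do not show that the calls of Krt8 and Krt19 in the CD133 knockdown are particular to it. Both knockdowns were set against the same 2 control libraries, so their fold changes are not independent of each other.

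Since the chains pair, their proportions within each library were also followed, per length. The ratio of Krt8 to Krt18 was 0.745 and 0.790 in controls, 0.839 and 0.897 in the Glis3 knockdown and 1.09 and 0.963 in the CD133 knockdown. The 3 groups did not overlap, and CD133 library 1 was the only library with more Krt8 than Krt18. Krt19 made up 32.7% and 32.1% of type I RNA (Krt18 plus Krt19) in controls, 36.2% and 41.8% in the Glis3 knockdown and 41.4% and 38.1% in the CD133 knockdown. All 4 knockdown libraries were above both controls.

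Krt7 made up 9.43% and 8.47% of type II RNA (Krt7 plus Krt8) in controls, 7.81% and 8.63% in the Glis3 knockdown and 6.72% and 7.52% in the CD133 knockdown. The CD133 libraries were below both controls and the Glis3 libraries overlapped them. The ratio of summed type II to summed type I RNA was 0.554 and 0.586 in controls, 0.581 and 0.571 in the Glis3 knockdown and 0.684 and 0.644 in the CD133 knockdown. Only the CD133 libraries lay outside the controls. Together the 4 keratins held 0.762% and 0.840% of all RPKM in controls, 0.938% and 0.902% in the Glis3 knockdown and 1.25% and 0.991% in the CD133 knockdown. With 2 libraries against 2, an exact two-sided permutation test cannot give a p below 0.333, so these proportions are given as a description.

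**Figure D3:**
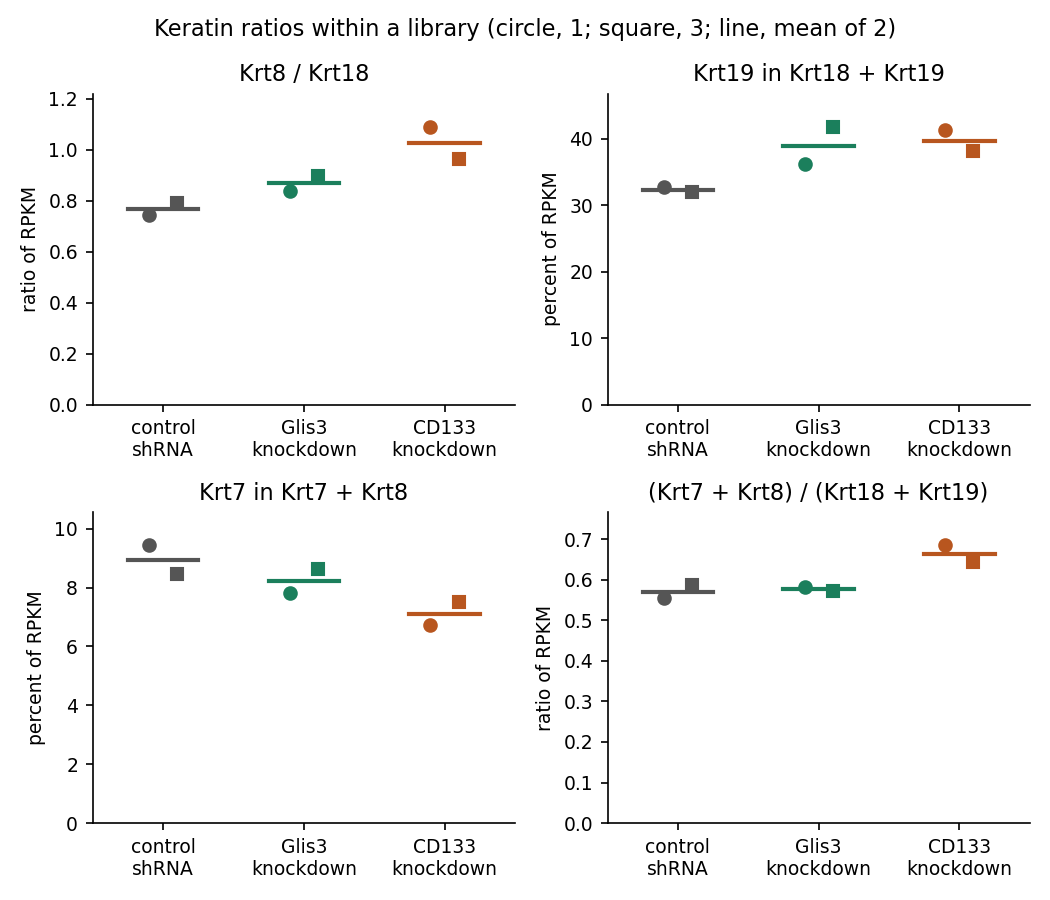
Proportions among the 4 keratins in each library: Krt8 over Krt18, Krt19 as a percentage of Krt18 plus Krt19, Krt7 as a percentage of Krt7 plus Krt8, and type II over type I. Circles are library 1, squares library 3 and lines group means. Krt8 over Krt18 is 0.745 and 0.790 in controls and 1.09 and 0.963 in the CD133 knockdown, and the 3 groups do not overlap.

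For each member called in a comparison, the genes with the most similar pattern were listed among 5287 genes whose mean reached 10 RPKM, by Pearson's r of log2 values over the 6 libraries. For Elf3 they were Tdp2 (0.994), Cpm (0.993) and Fam102a (0.991). For Krt8 they were Agps (0.998), Aco1 (0.987) and Optn (0.987), and for Krt19 Nploc4 (0.995), Myo1c (0.995) and Ckmt1 (0.994). None of the 3 lists held another member, but each names only 3 genes. Between members r ranged from -0.308 (Epcam with Elf3) to 0.971 (Krt7 with Krt8), and it was 0.905 for Krt8 with Krt19. The r values of the lists, over 6 libraries in 3 groups, are the highest of 5287. All these values only describe these libraries.

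Related genes were followed in lists of known function, to be read against all genes tested. Of these, 8.39% rose, 4.53% fell and 30.5% had an unadjusted p under 0.05 in the Glis3 knockdown, and 8.16%, 3.64% and 31.1% did so in the CD133 knockdown. Other keratins, many of them those of stratified or stressed epithelia, were far rarer than Krt8, with Krt17 the most abundant at a mean of 16.95 RPKM. Of 21 listed, 9 were tested. In the Glis3 knockdown 1 rose and 3 fell, with 5 of 9 at an unadjusted p under 0.05 in limma. Krt23, a type I keratin, stood at 8.43 and 9.78 RPKM in controls and at 17.77 and 15.44 RPKM in the Glis3 knockdown (log2 fold change 0.80, limma adjusted p = 0.0318). Krt16 and Krt17, keratins of wounded and hyperproliferative epithelium, had log2 fold changes of -0.72 (limma adjusted p = 0.0178) and -0.94 (0.0365). Krt17 went from 19.88 and 22.90 to 14.00 and 8.02 RPKM, and its log2 fold change was -0.57 without Glis3 library 3. The third fall was that of Krt14, a basal-layer keratin (-1.09, adjusted p = 0.0404), which lies outside the naming rule and was chosen after its values were seen. It was -0.67 without Glis3 library 1 and, at 0.29 to 3.00 RPKM, depended on the pseudocount (-1.90 with 0.1, adjusted p = 0.0628, and -0.41 with 5). Low values make the folds of such genes depend on the pseudocount in general: with 5 in place of 1, Krt16 had -0.31.

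With CD133 shRNA 1 of the 9 rose and none fell, with 2 of 9 at an unadjusted p under 0.05. Krt6a, a type II partner of Krt16 and Krt17, stood at 2.25 and 2.34 RPKM in controls and at 7.52 and 5.76 RPKM in the CD133 knockdown (log2 fold change 1.20, limma adjusted p = 0.0125). Between the knockdowns 2 were lower with Glis3 shRNA, Krt6a (-1.47, limma adjusted p = 0.0091) and Krt16 (-0.76, 0.0314). Of the 9, 5 had an unadjusted p under 0.05 there in limma. Among all genes tested 21.9% had one and 4.06% were called. Krt13, a type I keratin of stratified mucosa, varied most between replicates: 4.29 and 3.59 RPKM in controls, 3.74 and 44.31 RPKM in the Glis3 knockdown and 18.84 and 9.0 RPKM in the CD133 knockdown. It was named after its values were seen, and neither difference from control passed (limma adjusted p = 0.302 and 0.321). The median log2 fold change of the 9 was -0.07 in the Glis3 knockdown and 0.05 in the CD133 knockdown, against 0.04 over all genes in both.

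**Figure D4:**
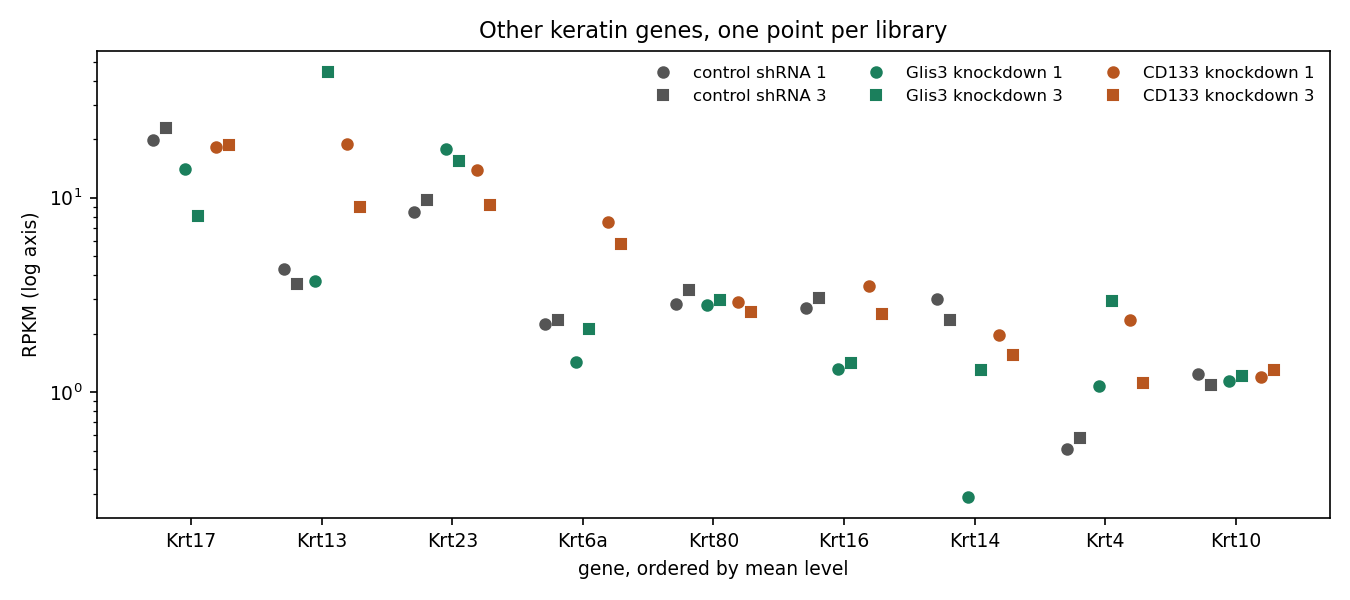
RPKM of the 9 other keratins tested, in each library, on a log axis. Circles are library 1 and squares library 3. Krt6a is higher in both CD133 libraries (7.52 and 5.76 RPKM) than in all others, and Krt13 spans 3.59 to 44.31 RPKM with wide gaps between replicates.

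Desmosomal anchors and cytolinkers, which tie keratin filaments to cell contacts, gave few calls. In the Glis3 knockdown none of 15 tested passed in limma, with 3 at an unadjusted p under 0.05, and the smallest p was that of periplakin, Ppl (log2 fold change -0.31, adjusted p = 0.0535). With CD133 shRNA Dsc2, a desmosomal cadherin, rose from 2.22 and 2.64 to 4.96 and 3.66 RPKM (0.62, adjusted p = 0.0317), and the other 14 did not pass. In that comparison 6 of the 15 had an unadjusted p under 0.05 in limma, where 31.1% of all genes did, and 13 lay above 0. Plakoglobin, Jup, the most abundant at a mean of 65.5 RPKM, had log2 differences of 0.08 and 0.19 from control, neither past the threshold. Between the knockdowns Ppl alone passed, lower with Glis3 shRNA (-0.43, adjusted p = 0.0417). The median of the 15 was 0.05 in the Glis3 knockdown and 0.13 in the CD133 knockdown, against 0.04 over all genes in each.

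Of 27 keratin-modifying or keratin-binding genes, 4 rose and 0 fell in each knockdown, with 7 at an unadjusted p under 0.05 in each. Plk1, a mitotic kinase that phosphorylates filament proteins, went from 8.23 and 9.28 RPKM in controls to 14.40 and 16.87 RPKM in the Glis3 knockdown (log2 fold change 0.77, limma adjusted p = 0.0095) and to 14.84 and 12.80 RPKM in the CD133 knockdown (0.60, 0.0209). Pinin, Pnn, a keratin-binding nuclear and desmosomal protein, had log2 fold changes of 0.39 and 0.38. Ywhag, a 14-3-3 protein of the family that binds phosphorylated Krt18, had 0.24 (adjusted p = 0.0469, called in 4 of 16 alternatives) and 0.30. The chaperone Hspa8, the most abundant at a mean of 673 RPKM, had log2 differences of 0.05 and 0.06 that did not pass. Between the knockdowns none of the 27 passed in limma, with 5 at an unadjusted p under 0.05.

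Among 22 partners, proteases and signalling genes of Epcam, 0 rose and 1 fell in the Glis3 knockdown. That gene was Ctnnb1, beta-catenin, the most abundant of the list, with 586.39 and 613.05 RPKM in controls against 498.60 and 435.17 RPKM (log2 fold change -0.36, limma adjusted p = 0.0380), and it was -0.24 after quantile normalization (0.0886). With CD133 shRNA 3 rose and 0 fell, with 5 at an unadjusted p under 0.05 in each knockdown. Fhl2, a coactivator of the cleaved Epcam tail, went from 4.31 and 4.86 to 11.05 and 8.47 RPKM (0.94, adjusted p = 0.0126). The membrane protease Tmprss2 (0.49, 0.0276) and E-cadherin, Cdh1 (0.35, 0.0334), were the others. Claudin-7, Cldn7, which binds Epcam, had log2 differences of 0.24 and 0.26 that did not pass (adjusted p = 0.104 and 0.0907). Between the knockdowns 0 of 22 passed in limma, with 5 at an unadjusted p under 0.05.

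Epithelial transcription factors other than Elf3 numbered 28. In the Glis3 knockdown 0 rose and 3 fell, with 9 at an unadjusted p under 0.05. The fallen genes were Ovol1 (log2 fold change -0.43, limma adjusted p = 0.0279) and the ETS factors Elf4 (-0.28, 0.0313) and Ets1 (-0.29, 0.0497). No other factor of the list was called higher there with Elf3, though 12 of the 28 had log2 fold changes above 0. Ehf, the ETS factor closest in kind to Elf3, was named after its values were seen and had log2 differences of 0.09 and 0.19 from control, neither past the threshold. In the CD133 knockdown 4 rose and 3 fell, and 13 of the 28 had an unadjusted p under 0.05 in limma, where 31.1% of all genes did. Sox9, the duct and progenitor factor, went from 33.69 and 31.40 to 43.18 and 43.82 RPKM (0.41, adjusted p = 0.0151), Hnf4a had 0.31 (0.0209) and Klf6 had -0.44 (0.0250). Klf5, the most abundant at a mean of 220 RPKM, had log2 differences of 0.12 and 0.03 that did not pass. Between the knockdowns Klf6 was higher with Glis3 shRNA (0.45), and Sox9 (-0.30) and Hnf4a (-0.27) were lower. In that comparison 14 of the 28 had an unadjusted p under 0.05 in limma, where 21.9% of all genes did.

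Of 7 other intermediate filament and lamina genes tested, 4 rose in the Glis3 knockdown and 3 in the CD133 knockdown, and 0 fell in either, with 5 and 6 at an unadjusted p under 0.05. Lmnb1, a nuclear lamina filament, went from 17.22 and 19.20 to 26.73 and 31.69 RPKM in the Glis3 knockdown (log2 fold change 0.65, limma adjusted p = 0.0139). The neuronal filament genes Nefl (0.86) and Ina (0.77), both under 4 RPKM, rose there as well. In the CD133 knockdown Ina (0.72), the progenitor filament Nes (0.67) and Lmna (0.35), the most abundant at a mean of 43.9 RPKM, rose. The medians of the 7 were 0.40 and 0.30, against 0.04 over all genes. Between the knockdowns Nefl was higher (0.57) and Nes lower (-0.76) with Glis3 shRNA.

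Only 2 of 16 mesenchymal genes were tested. Fibronectin, Fn1, stood at 112.32 and 111.93 RPKM in controls, at 53.48 and 56.31 RPKM in the Glis3 knockdown (log2 fold change -1.02, limma adjusted p = 0.000987) and at 84.70 and 87.79 RPKM in the CD133 knockdown (-0.37, 0.0159). N-cadherin, Cdh2, did not pass against control and was lower with Glis3 than with CD133 shRNA (-0.65). Fn1 too was lower with Glis3 shRNA (-0.64). Leaving out either control library ended most or all calls of these lists against control, as it did those of the members. The same held for calls over all genes tested, so this loss was not particular to the lists. No list gene called and named under the rule changed sign in any alternative. The log2 fold change of Fn1 in the Glis3 knockdown ranged from -1.08 to -0.97, and that of Krt17 from -1.31 to -0.57. Between the knockdowns 2 of 10 list genes were still called without either control library, and 2 with only the 2 groups compared. There Klf6, Sox9 and Hnf4a were called in 8, 6 and 5 of 15 alternatives.

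Some markers of cell types differed between the groups, and most did not pass the test. Of 11 duct markers tested, 5 had an unadjusted p under 0.05 in limma in each knockdown. In the Glis3 knockdown 0 rose and 1 fell, and in the CD133 knockdown 3 rose and 2 fell. The list includes Prom1, the target of the CD133 shRNAs, which is 1 of the 2 that fell there. The 11 duct markers in the table summed to 7810.46 and 8086.60 RPKM in controls, 6662.49 and 5477.45 RPKM in the Glis3 knockdown and 4659.63 and 5631.43 RPKM in the CD133 knockdown. Most of this sum was Spp1, osteopontin, with 6490.03 and 6732.95 RPKM in controls and 3127.42 and 4201.59 RPKM in the CD133 knockdown (log2 fold change -0.87, limma adjusted p = 0.0290). Its difference in the Glis3 knockdown, -0.50, did not pass (adjusted p = 0.108). In the other direction Car2, carbonic anhydrase of duct cells, went from 137.22 and 163.71 to 303.07 and 269.18 RPKM (0.93, 0.0138). Of 5 endocrine markers with values, 2 were tested and 0 were called by limma in either knockdown, with 0 and 1 at an unadjusted p under 0.05. The 5 summed to 4.41 and 10.75 RPKM in controls, 12.84 and 6.41 RPKM in the Glis3 knockdown and 2.81 and 1.1 RPKM in the CD133 knockdown. The Glis3 values overlapped the controls, and both CD133 values lay below them. Ncam1, of the Schwann and neural list, was at 3.89 and 3.75 RPKM in controls and at 1.79 and 1.22 RPKM in the Glis3 knockdown (-0.95, adjusted p = 0.0086). Their part in the results on the keratins, Epcam and Elf3 was not tested.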

How the data were processed

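Poly(A) RNA of 6 libraries was sequenced with a stranded kit. The authors deposited 1 table of RPKM values, and the submitters' processing notes name TopHat2, HTSeq, bcl2fastq 2.18.0.12 and the build mm10. Not given in the sources used here are the gene annotation, the library totals and whether counting used strand. In this table the lowest per-gene maximum was 1.00 RPKM, so genes below that level are not analysed here.

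Columns were matched to samples through the names in the labels. Values were analysed as log2(RPKM + 1) for the 10829 genes whose mean reached 1 RPKM, a scale that understates changes of low genes. Limma 3.58.1 (R 4.3.3) fitted the 3 group means, moderating variances by empirical Bayes with a trend (3 residual and 3.69 prior degrees of freedom). Tests were two-sided, with Benjamini-Hochberg adjustment over all genes tested and a threshold of 0.05. The fit was also run on simulated log values drawn with its own variances, which cannot test how calls depend on library or normalization. Depth was taken from the steps between low values. Within 0.15 read, 54.7% to 62.1% of the low values were then whole numbers of reads, against 30% for evenly spread values at a fixed depth. The depth was fitted to these same values, which raises their share, so the share does not test the estimate. Reads were not recovered, so no count test was run. Intervals and SE are limma's moderated ones.

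The members and lists were chosen with earlier results of these data known. In each comparison the rule named, per list, up to 3 genes past the threshold by smallest p (or the 1 with the smallest p where none passed) and the most abundant gene, and, for members called, the 3 genes of most similar pattern. Predicted and numbered genes were not named under the rule. Alternatives were median centring, quantile normalization, pseudocounts of 0.1 and 5, no filter, a minimum mean of 5 RPKM and no variance trend. Others were only the compared groups, the replicate number as a block, and leaving out each library. Against control, a crossed replicate block chosen after seeing the data was also counted among the 16 alternatives. Promoter sequences came from RefSeq, gene positions from GENCODE.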

Additional observations from a re-analysis of the deposited data

How the results depend on the processing

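Of 282 log2 fold changes of the 6 genes computed under alternatives, 255 kept their direction and side of the threshold. The 255 include members that were not called and stayed so. Of the calls themselves, that of Elf3 in the Glis3 knockdown held in 14 of 16 alternatives. In the CD133 knockdown the call of Krt19 held in 12, that of Krt8 in 11 and that of Elf3 in 8 of 16. The number of genes called in the Glis3 knockdown was 1400, 913 with a minimum mean of 5 RPKM and 21 to 1343 with a library left out. Members called there were 1, 2 under quantile normalization, 2 with only the compared groups, and 0 to 2 with a library left out. Krt18 had -0.03 under median centring and -0.08 to 0.14 with a library left out. In the CD133 knockdown, 1278 genes were called, and 0 to 1673 with a library left out. Members called were 3, 1 under median centring, and 0 to 3 with a library left out, and Epcam had -0.04 to 0.16. Between the knockdowns 440 genes were called, 58 with only the compared groups and 46 to 756 with a library left out. The replicate numbers did not pair the libraries (correlation of deviations -0.372 for control with Glis3, -0.428 for control with CD133 and 0.032 between the knockdowns). With the replicate block, 608, 335 and 79 genes were called in these comparisons, and 0 members in the CD133 knockdown. A crossed pairing, chosen after seeing the data, gave 1497 and 1456 genes and 1 and 3 members against control. The counting error at the lowest value of each member was estimated at 0.54% to 1.62%. The spread between control libraries (CV, n = 2) was 1.19% for Elf3, below its counting error of 1.62%, and 4.26% to 12.6% for the other 5 genes, above theirs.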
